A study of Homo sapiens with 6 samples.

Results

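The genes described here encode laminins, nidogen and perlecan, the glycoproteins and proteoglycan from which, together with collagen IV, a basement membrane is built. The 9 members were chosen by gene symbol: LAMA3, LAMA4 and LAMA5 (laminin alpha chains), LAMB1, LAMB2 and LAMB3 (beta chains), LAMC1 (a gamma chain), NID1 (nidogen-1) and HSPG2 (perlecan). They were 9 of the 20461 Ensembl genes listed in the tables and 9 of 15 listed genes for laminin chains, nidogens, perlecan and agrin. All 9 passed the filter on low counts, and together they made up 0.183% to 0.197% of each library's counts. The RNA came from ARPE-19, an established line of human retinal pigment epithelium, and was sequenced in bulk. The control group carried a control lentivirus and the PDZK1 overexpression group carried a lentivirus for PDZK1, a scaffold protein with PDZ domains; each group had 3 libraries. Transduction used a multiplicity of infection of 10 in both groups, with 4 µg/ml puromycin for selection and then 48 h in 37.5 mM glucose, so high glucose and puromycin were common to all libraries and no normal-glucose library was analysed here. Nothing in the labels says that the libraries came from separate cultures, so the p-values measure the spread between these samples, which may be technical.

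A laminin is a trimer of one alpha, one beta and one gamma chain. The alpha chain carries the domains that bind integrins and dystroglycan on the cell, while the short arms join laminins into a sheet. Nidogens link that sheet to the collagen IV network, and perlecan adds heparan sulfate chains that hold growth factors. The retinal pigment epithelium rests on its own basement membrane, the innermost layer of Bruch's membrane, and attaches to it through these chains.

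The windows upstream of 3 of the genes are shown because the first fell under PDZK1 overexpression while the other 2, which have the same base composition or nearly so, did not pass the test in either direction. Each is the 250 bases before the RefSeq start on GRCh38.p14, read 5′ to 3′ on the strand of the gene, and capitals mark GC boxes (GGGCGG on either strand, overlapping matches included). They lie at chr20:62367313-62367562 on the minus strand (LAMA5), chr1:21937311-21937560 on the minus strand (HSPG2) and chr1:183023170-183023419 on the plus strand (LAMC1).
LAMA5: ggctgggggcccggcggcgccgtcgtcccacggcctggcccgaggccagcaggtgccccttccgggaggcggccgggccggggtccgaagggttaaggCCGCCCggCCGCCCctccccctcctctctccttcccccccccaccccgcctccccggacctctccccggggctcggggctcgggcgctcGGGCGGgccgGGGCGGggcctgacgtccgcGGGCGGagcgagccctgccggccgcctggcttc
HSPG2: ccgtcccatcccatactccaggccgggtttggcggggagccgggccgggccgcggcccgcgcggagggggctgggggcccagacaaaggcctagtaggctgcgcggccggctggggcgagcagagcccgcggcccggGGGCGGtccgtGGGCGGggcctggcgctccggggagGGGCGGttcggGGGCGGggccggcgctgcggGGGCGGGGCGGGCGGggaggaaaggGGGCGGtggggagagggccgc
LAMC1: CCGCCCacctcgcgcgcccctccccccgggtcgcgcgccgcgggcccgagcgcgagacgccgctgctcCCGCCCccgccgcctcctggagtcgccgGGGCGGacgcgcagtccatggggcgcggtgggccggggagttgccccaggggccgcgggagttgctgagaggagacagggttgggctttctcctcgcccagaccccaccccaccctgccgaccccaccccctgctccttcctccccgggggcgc
G and C made up 82.8% of the LAMA5 window, 82.8% of the HSPG2 window and 79.6% of the LAMC1 window, which held 5, 8 and 3 GC boxes. RefSeq gave 11 windows for the 9 members, and 8 members had a GC box in at least 1 window. Over all 35116 promoter windows of the same length the share was 42.6%. The former counts genes and the latter windows, so they are not like measures. Only LAMB3 had more than 1 window, and all 3 of its windows held a GC box. LAMA4 was the member without a GC box. Its only window, at chr6:112254568-112254817 on the minus strand, lies inside the gene, whose annotated start is 112254939. TATAAA and CACGTG, also sought on both strands, were in no window of a member. The AP-1 motif TGANTCA occurred in 6.57% of all windows, in LAMA3 with 2 matches and in 1 of the 3 LAMB3 windows. CCAAT occurred in 32.0% of all windows, in NID1 and in 1 of the 3 LAMB3 windows. Such a match is a description of letters and not a site of binding. The only LAMA3 window, at chr18:23872770-23873019 on the plus strand, lies inside the gene, whose annotated start is 23689443. The LAMA3 matches, its GC box among them, therefore belong to an internal start. The AP-1 and CCAAT matches of LAMB3 are both in its window at chr1:209651375-209651624 on the minus strand. That window also lies inside the gene, whose annotated start is 209652466. The bases before the annotated starts of LAMA3 and LAMA4 were not searched. Whether these cells used any of these internal starts was not tested.

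The total counts were 27970618 to 32804567 per library. PDZK1, the overexpressed gene, had 19, 18 and 23 counts in control replicates 1 to 3 and 3020, 2541 and 2828 counts in PDZK1 replicates 1 to 3, so no library went against its label. The second principal component, with 21.1% of the variance, placed control replicate 3 at -29.99, away from the other control libraries at 14.45 and 18.79. Values without that library are given beside LAMB2, LAMB3, NID1, NID2 and HSPG2. Of the markers of retinal pigment epithelium, MITF (1123 to 1385 counts), OTX2 (1781 to 2267 counts) and RLBP1 (95 to 166 counts) were present in every library, while RPE65 and TTR had 0 counts in every library, which allows up to 0.0915 to 0.109 CPM (counts scaled to library size). BEST1 had 124 to 181 counts in 5 libraries and 11459 in PDZK1 replicate 1. TYR and RGR had 0 to 2 counts and DCT 0 to 4. COL1A2, DCN, LUM and THY1 of fibroblasts, CDH5 of endothelium and PTPRC of leukocytes were at 0 in every library. Other genes of these lists were present in every library. Among them were FAP (2006 to 3415 counts), PDGFRB (1988 to 2685), ACTA2 (1337 to 1736) and COL1A1 (102 to 196) of fibroblasts. KDR of endothelium had 107 to 155 counts and CD68 of leukocytes 3948 to 4517. The 5 tested fibroblast genes all had a positive log2 fold change. No marker passed the test in any of the lists, of which 10 of 15 (pigment epithelium), 5 of 10 (fibroblast), 2 of 9 (endothelium), 4 of 10 (photoreceptor and Müller glia) and 2 of 8 (leukocyte) genes could be tested. The summed CPM of the fibroblast list was 203 to 217 in the control group and 230 to 250 in the PDZK1 group. That of the endothelium list was 5.41 to 5.51 and 4.07 to 4.55, and that of the leukocyte list 132 to 163 and 126 to 129. The part of these lists in the results was not tested, and the sums of the pigment epithelium and photoreceptor lists overlapped between the groups. Most of the pigment epithelium sum was KRT8 (means of 1152 CPM in control and 1161 in PDZK1) and KRT18 (782 and 776). Of its 10 tested genes, 5 had a positive log2 fold change and 5 a negative one. The 2 whose groups did not overlap, LRAT (-0.82, adjusted p = 0.2 with edgeR) and SERPINF1 (-0.83, adjusted p = 0.294), were lower in the PDZK1 group.

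Levels are compared between genes only in FPKM, fragments scaled by transcript length and library depth. Fold changes come from the counts, as the log2 of PDZK1 overexpression over control with edgeR's quasi-likelihood test and Benjamini-Hochberg adjustment over 13645 genes. In the control group LAMB2 was the most abundant member at 72.7 ± 3.61 FPKM (SD, n = 3). LAMC1 (45.9 ± 1.28) and LAMB1 (43.8 ± 1.2) followed with overlapping ranges, then LAMA4 (33.3 ± 0.75), HSPG2 (25.2 ± 1.44) and LAMB3 (12.3 ± 1.92), each clear of its neighbours. LAMA3 (4.38 ± 0.408), LAMA5 (4.12 ± 0.34) and NID1 (3.43 ± 0.788) were lowest, and each overlapped the next. In the PDZK1 group LAMB2 (71.2 ± 3.51) again stood first, HSPG2 (28.7 ± 1.35) and LAMA4 (28.1 ± 0.445) overlapped, and LAMA5 (2.29 ± 0.185) was last, below the ranges of NID1 (3.31 ± 0.101) and LAMA3 (3.23 ± 0.381).

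**Figure D1:**
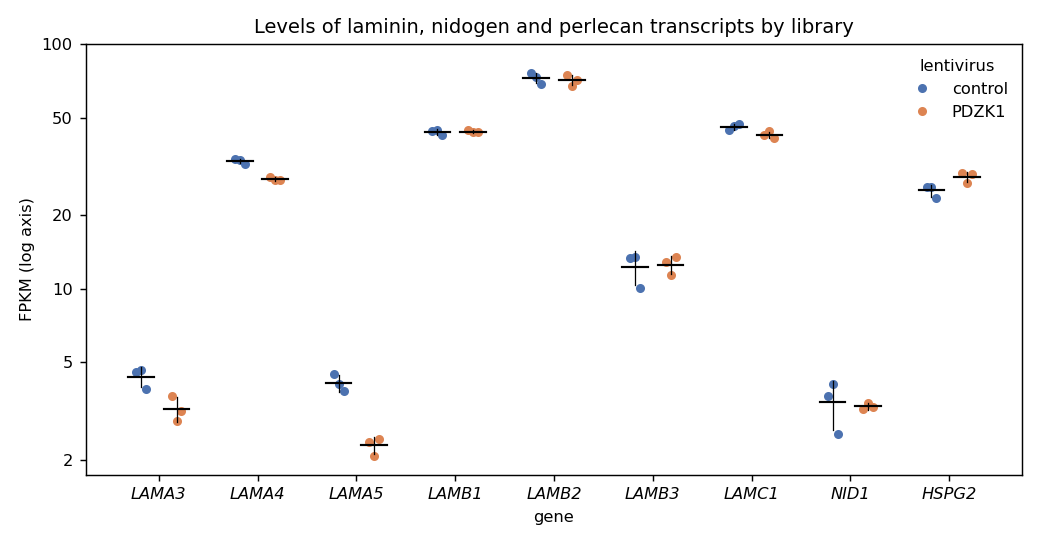
Level of each member in FPKM on a log axis, with 1 point per library, control lentivirus in blue and PDZK1 lentivirus in orange; horizontal bars are group means and vertical bars SD (n = 3). The points of LAMA3, LAMA4 and LAMA5 are lower in the PDZK1 group without overlap, and those of LAMB1, LAMB2, LAMB3 and NID1 overlap.

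All 3 alpha chain genes among the members fell under PDZK1 overexpression with edgeR, and no member rose past the threshold. The LAMA3 call held in only 11 of 17 alternatives. The 3 calls among 9 members stand beside a background of 3.83% of all tested genes past the threshold in either direction, 2.41% lower and 1.41% higher. The CPM of the groups did not overlap for 5 of the 9 members, LAMA3, LAMA4, LAMA5, LAMC1 and HSPG2, against 23.9% of all tested genes. The median log2 fold change was -0.064 over the members and -0.00025 over all tested genes. In a bulk culture, fewer cells that express a gene and less RNA per cell cannot be told apart.

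LAMA5 encodes the alpha5 chain, found in the basement membranes of most adult epithelia. It measured 4.48, 4.07 and 3.80 FPKM in control replicates 1 to 3 and 2.37, 2.08 and 2.42 FPKM in PDZK1 replicates 1 to 3. Every PDZK1 library lay below every control library, and the gap between the groups was wider than the spread within either. LAMA5 fell from 50.9 ± 4.61 to 28.1 ± 2.59 CPM (n = 3), a log2 fold change of -0.86 (SE 0.0858, 95% interval -1.05 to -0.66, adjusted p = 0.000895 with edgeR). Its fitted level fell by 44.8%, the largest change of any member. It stayed past the threshold under all 17 alternatives run, with values from -0.92 to -0.64. LAMA5 (ENSG00000130702) lies at chr20:62307955-62367312 on the minus strand in GENCODE release 29. ADRM1, a proteasome ubiquitin receptor gene on the other strand, overlaps it and had a log2 fold change of -0.061 (adjusted p = 0.648 with edgeR). Whether the counting used strand is not given in the sources used here.

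LAMA4 encodes the alpha4 chain, a short chain without the amino-terminal domain that polymerises, known from vessel walls and mesenchymal tissue. It was the main alpha chain of these cells, at 33.8, 33.6 and 32.4 FPKM in the 3 control libraries, against 28.6, 27.7 and 27.9 FPKM with PDZK1 overexpression. The libraries within a group differed little, and the groups did not overlap. LAMA4 fell from 257 ± 6.08 to 215 ± 3.24 CPM (n = 3), a log2 fold change of -0.26 (SE 0.0337, 95% interval -0.33 to -0.18, adjusted p = 0.00311 with edgeR), so the fitted level fell by 16.4%. Its interval excludes a 1.5-fold change and does not overlap that of LAMA5, so the fall was proportionally smaller. LAMA4 also passed the threshold under all 17 alternatives, from -0.28 to -0.24. LAMA4 (ENSG00000112769) lies at chr6:112108760-112254939 on the minus strand.

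LAMA3 encodes the alpha3 chain, which joins the LAMB3 chain in the laminin of epithelial anchoring junctions. The counts are per gene and do not separate the longer and shorter transcripts of LAMA3. LAMA3 measured 4.55, 4.67 and 3.91 FPKM in the 3 control libraries, against 3.63, 2.88 and 3.17 FPKM with PDZK1 overexpression. The lowest control value, in replicate 3, was above the highest PDZK1 value, in replicate 1, by less than the spread within a group. In CPM, LAMA3 fell from 49.8 ± 5.26 to 35.0 ± 1.88 (n = 3), a log2 fold change of -0.51 (SE 0.0805, 95% interval -0.69 to -0.33, adjusted p = 0.0092 with edgeR), so the fitted level fell by 29.7%. The call was lost without PDZK1 replicate 1 (adjusted p = 0.0579, with 1.31% of all tested genes called) and without control replicate 2 (adjusted p = 0.0561, with 1.34% called). A block for the replicate number in the edgeR fit lost the call too (adjusted p = 0.0601, with 1.19% called). The call was also lost with limma on the log2 FPKM scale, with adjusted p-values of 0.141 to 0.184, where 1.5% of genes passed with a pseudocount of 1, 1.51% with 0.1 and 1.13% without the filter on low values. LAMA3 (ENSG00000053747) lies at chr18:23689443-23956222 on the plus strand.

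**Figure D2:**
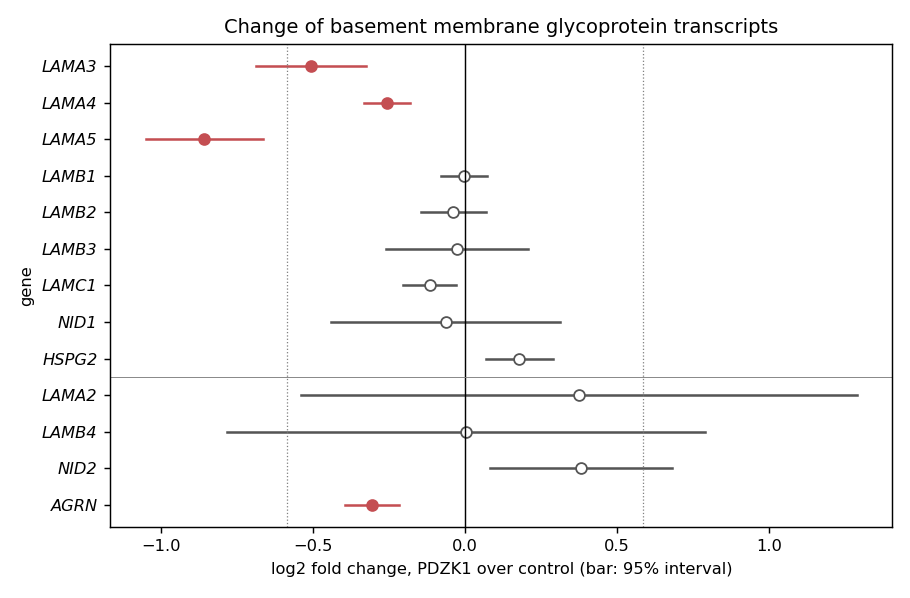
Log2 fold change of the members (above the line) and of the other tested laminin, nidogen and agrin genes (below it), PDZK1 overexpression over control, with the 95% interval from edgeR (n = 3 libraries per group); filled red points passed an adjusted p of 0.05 and dotted lines mark 1.5-fold. The intervals of LAMA3, LAMA4 and LAMA5 lie below 0, LAMA5 lowest at -0.86, and the intervals of LAMB1, LAMB2, LAMB3 and NID1 cross 0.

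LAMB1, LAMB2 and LAMB3 did not pass the test, and the interval of each excludes a 1.5-fold change in either direction, as do the intervals of 78.4% of all tested genes. LAMB2, whose beta2 chain is known from the retina, the kidney filter and the neuromuscular junction, measured 76.1, 73.0 and 68.9 FPKM in the 3 control libraries, against 74.6, 67.6 and 71.4 FPKM with PDZK1 overexpression. The groups overlapped, with a log2 fold change of -0.040 (95% interval -0.15 to 0.068, adjusted p = 0.74 with edgeR), and -0.075 without control replicate 3 (adjusted p = 0.347). LAMB1, whose beta1 chain is the widespread partner of gamma1, measured 44.2, 44.7 and 42.4 FPKM against 44.4, 43.6 and 43.6 FPKM, and the control libraries spanned the PDZK1 libraries. Its log2 fold change of -0.0046 had the narrow interval of -0.081 to 0.072 (adjusted p = 0.967). LAMB3 measured 13.4, 13.4 and 10.1 FPKM against 12.8, 11.3 and 13.5 FPKM, and control replicate 3 was the lowest library. The log2 fold change of LAMB3 was -0.027 (95% interval -0.26 to 0.21, adjusted p = 0.929), and -0.13 without that library (adjusted p = 0.368). The directions of LAMB1 and LAMB3 turned on the FPKM scale, to 0.0036 and 0.033. LAMB1 (ENSG00000091136) lies at chr7:107923799-108003255, LAMB2 (ENSG00000172037) at chr3:49121114-49133118 and LAMB3 (ENSG00000196878) at chr1:209614870-209652466, each on the minus strand. The DLD gene overlaps LAMB1 on the other strand, with a log2 fold change of -0.10 (adjusted p = 0.19).

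LAMC1 encodes gamma1, the gamma chain of most laminins and the one to which nidogens bind. It measured 44.5, 46.1 and 47.0 FPKM in the 3 control libraries, against 42.3, 44.0 and 41.4 FPKM with PDZK1 overexpression. All PDZK1 libraries were lower than all control libraries, but by a small step. The log2 value for LAMC1 was -0.12 (SE 0.0395, 95% interval -0.21 to -0.029, unadjusted p = 0.0146, adjusted p = 0.152 with edgeR), a change of -7.81% that did not pass the threshold, and the adjusted p was 0.108 to 0.423 over the alternatives. LAMC1 (ENSG00000135862) lies at chr1:183023460-183145592 on the plus strand.

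NID1 measured 3.64, 4.09 and 2.56 FPKM in the 3 control libraries, against 3.21, 3.41 and 3.30 FPKM with PDZK1 overexpression. Control replicate 3 was the lowest of the 6 libraries, and the other control libraries were above all 3 PDZK1 libraries. The log2 value for NID1 was -0.064 (SE 0.159, 95% interval -0.44 to 0.31, adjusted p = 0.886 with edgeR). It was -0.23 without control replicate 3 (adjusted p = 0.116), and with each library left out in turn it ran from -0.23 to 0.083, so these libraries fix no direction. NID1 (ENSG00000116962) lies at chr1:235975830-236065162 on the minus strand.

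HSPG2 was the member with the opposite sign. It measured 26.0, 26.0 and 23.6 FPKM in the 3 control libraries, against 29.6, 27.1 and 29.3 FPKM with PDZK1 overexpression. The groups did not overlap, with control replicate 3 lowest. The log2 value for HSPG2 was 0.18 (SE 0.0493, 95% interval 0.068 to 0.29, unadjusted p = 0.00503, adjusted p = 0.0856 with edgeR), a level 13.1% higher that did not pass the threshold. DESeq2 gave the same log2 value with an adjusted p of 0.0233, where 5.24% of 15379 genes passed, and over all 17 alternatives the adjusted p was 0.0233 to 0.281. Without control replicate 3 the log2 value was 0.13 (adjusted p = 0.0721). HSPG2 (ENSG00000142798) lies at chr1:21822245-21937297 on the minus strand. LDLRAD2 overlaps it on the other strand at 25 to 57 counts per library, against 10116 to 14621 for HSPG2.

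The alpha chains made up a smaller part of the laminin transcripts set against the beta chains and LAMC1 under PDZK1 overexpression. The shares that follow are of FPKM, are descriptions with no test, and count 5 alpha chain genes, 4 beta chain genes and LAMC1. The FPKM of the alpha chains summed to 43.2, 42.4 and 40.6 in the 3 control libraries, against 34.8, 32.8 and 33.9 with PDZK1 overexpression, with no overlap. The beta chain sum was 129 ± 6.47 and 128 ± 4.69 (n = 3), with overlap. Alpha chains held 19.4% ± 0.0909 of the FPKM of these genes in the control group and 16.6% ± 0.109 in the PDZK1 group, without overlap. LAMC1 over the alpha sum was 1.09 ± 0.0644 in the control group and 1.26 ± 0.0701 in the PDZK1 group, again without overlap.

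Within the alpha chains the LAMA4 share was higher and the LAMA5 share lower under PDZK1 overexpression. LAMA4 held 79.2% ± 0.803 of the alpha FPKM in the control group and 83.1% ± 1.36 in the PDZK1 group (n = 3), although its own level was lower. LAMA5 held 10.4%, 9.58% and 9.38% in the 3 control libraries, against 6.81%, 6.34% and 7.15% with PDZK1 overexpression, and the groups did not overlap. The LAMA3 share, 10.4% ± 0.692 and 9.52% ± 0.849, overlapped between the groups. Among the beta chains the shares of LAMB2 (56.4% and 55.7%), LAMB1 (34.0% and 34.4%) and LAMB3 (9.52% and 9.82%) overlapped.

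**Figure D3:**
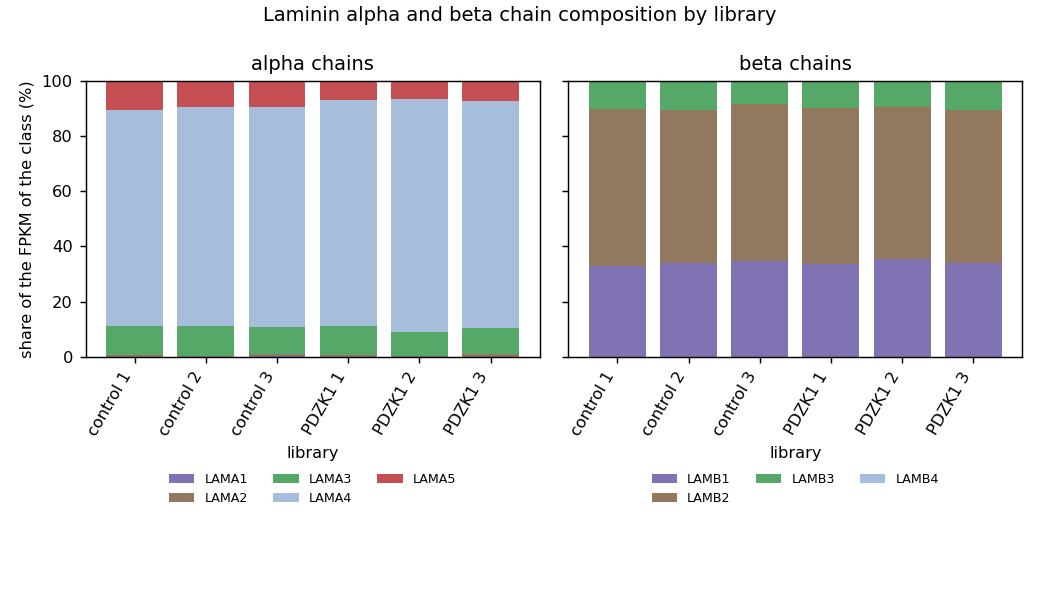
Share of each chain in the summed FPKM of its class, in percent, with 1 stacked bar per library for the alpha and the beta chains. LAMA4 is the largest alpha share in all 6 libraries, the LAMA5 share is smaller in the 3 PDZK1 libraries, and LAMB2 is the largest beta share in all 6.

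Of 6 other laminin, nidogen and agrin genes, 4 could be tested, with a median log2 fold change of 0.19. Of these 1 changed, AGRN, beside 3.83% of all tested genes. AGRN encodes agrin, a heparan sulfate proteoglycan that binds laminin and dystroglycan. It measured 75.5, 75.3 and 73.1 FPKM in the 3 control libraries, against 63.5, 60.2 and 58.6 FPKM with PDZK1 overexpression. The groups stood clear of each other, and the log2 fold change in CPM was -0.31 (SE 0.0398, adjusted p = 0.00308 with edgeR), past the threshold under all 17 alternatives. The 17 tested neighbours of AGRN on the chromosome had a median log2 fold change of -0.23, with 14 of them negative. How far AGRN shared in this was not tested. Perlecan and agrin are the large heparan sulfate proteoglycans of this matrix, and HSPG2 held 25.2% ± 0.745 of their summed FPKM in the control group and 32.1% ± 1.17 in the PDZK1 group, without overlap.

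NID2, the other nidogen gene, measured 2.49, 2.80 and 3.69 FPKM in the 3 control libraries, against 3.73, 4.10 and 3.95 FPKM with PDZK1 overexpression. Control replicate 3 was close to the PDZK1 libraries, and in CPM it lay above PDZK1 replicate 1. The log2 fold change was 0.38 (95% interval 0.081 to 0.68, adjusted p = 0.17 with edgeR), and without control replicate 3 it was 0.55 (adjusted p = 0.00553). NID1 held 59.4%, 59.3% and 41.0% of the nidogen FPKM in the 3 control libraries, against 46.3%, 45.4% and 45.5% with PDZK1 overexpression, so control replicate 3 was the lowest of all. RTRAF overlaps NID2 on the other strand, with a log2 fold change of 0.035 (adjusted p = 0.652).

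The other laminin genes described were low. LAMA2 (log2 fold change 0.37, 95% interval -0.54 to 1.29, adjusted p = 0.707 with edgeR) and LAMB4 (0.0023, adjusted p = 0.999) did not pass the test. LAMA1 had 8, 6 and 20 counts in the 3 control libraries, against 0, 4 and 4 with PDZK1 overexpression, and LAMC3 had 0, 0 and 6 against 0, 13 and 6, and neither passed the filter.

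Of 21 receptor and linker genes, all tested, 2 rose and 4 fell, beside 1.41% and 2.41% of all tested genes, with a median log2 fold change of -0.046. The falls of ITGB4 and SDC3 held with any 1 library left out, and the other 4 calls did not. ITGB4, the integrin beta4 subunit of hemidesmosomes, which binds laminins, fell from 42.8 ± 1.26 to 22.5 ± 1.07 CPM (log2 fold change -0.93, SE 0.0588, adjusted p = 8.2e-05 with edgeR). Its partner ITGA6 fell by 0.14 on the log2 scale (adjusted p = 0.0391). Among the syndecans, transmembrane heparan sulfate proteoglycans, SDC3 (-0.72, adjusted p = 0.00403) and SDC4 (-0.17, adjusted p = 0.049997) fell and SDC1 rose (0.55, adjusted p = 0.0303). CD151, a tetraspanin that associates with laminin-binding integrins, rose (0.14, adjusted p = 0.049997). ITGB1 (0.016, adjusted p = 0.912), ITGA3 (-0.14, adjusted p = 0.109) and the dystroglycan gene DAG1 (-0.043, adjusted p = 0.664) did not pass. SDC1, CD151, SDC4 and ITGA6 each passed in 1 of the 6 leave-one-out fits, and over all 17 alternatives they passed in 10, 6, 2 and 7.

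Of 31 genes for collagen IV and other basement membrane components, 22 were tested, with a median of -0.11. Of these 1 rose and 5 fell, beside 1.41% and 2.41% of all tested genes. COL4A1 (0.18, adjusted p = 0.643 with edgeR) and COL4A2 (-0.030, adjusted p = 0.937), the chains of the common collagen IV network, did not pass. For COL4A1 the control libraries were at 268, 258 and 189 CPM and the PDZK1 libraries at 280, 244 and 285 CPM, so control replicate 3 was the lowest and the other control libraries lay within the PDZK1 range. COL4A6, a chain of a rarer network, fell from 5.22 ± 0.766 to 2.86 ± 0.337 CPM (-0.87, adjusted p = 0.0267). NTN4, a netrin that binds the laminin gamma1 short arm, fell (-0.25, adjusted p = 0.024), as did SPARC (-0.23, adjusted p = 0.0292), EFEMP1 (-0.17, adjusted p = 0.0303) and FBLN1 (1.06 ± 0.256 to 0.124 ± 0.111 CPM, adjusted p = 0.0322). COL7A1, the collagen of anchoring fibrils, rose from 22.6 ± 2.06 to 29.5 ± 0.3 CPM (0.39, adjusted p = 0.019). None of these 6 calls held in every fit that left out 1 library. COL4A6 passed in 3 of the 6, NTN4 in 2, and SPARC, EFEMP1, FBLN1 and COL7A1 in 1 each. Over all alternatives COL4A6 passed in 10 of 17, NTN4 in 9, SPARC, EFEMP1 and COL7A1 in 8 each, and FBLN1 in 6 of 15.

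Of 15 genes for enzymes that cut laminin or perlecan, 14 were tested, with a median of -0.062. Of these 1 rose and 1 fell, beside 1.41% and 2.41% of all tested genes. PLAU, which encodes urokinase, rose from 13.7 ± 0.697 to 26.0 ± 1.87 CPM (0.93, adjusted p = 0.000326 with edgeR), and TLL1, a tolloid-like protease, fell (-0.86, adjusted p = 0.0419). Of 20 genes of heparan sulfate synthesis and editing, 19 were tested, with a median of -0.0034. With edgeR 0 rose and 2 fell, beside the same shares of all tested genes. An unadjusted p under 0.05 was found for 7 genes of the list and for 17.5% of all tested genes. SULF2, an extracellular enzyme that removes 6-O-sulfate, fell from 138 ± 8.81 to 92.3 ± 5.08 CPM (-0.58, adjusted p = 0.000809), and HS6ST1, a transferase that adds it, fell from 32.7 to 25.0 CPM (-0.39, adjusted p = 0.0137). Of 13 genes that glycosylate dystroglycan for laminin binding, 12 were tested and 0 passed with edgeR, beside 3.83% of all tested genes. The list median was 0.034, and 1 gene had an unadjusted p under 0.05. Of the 17 calls over these lists and AGRN, 5 (AGRN, ITGB4, PLAU, SDC3 and SULF2) stayed past the threshold in all 6 fits that left out 1 library. The other 12 passed in 1 to 3 of the 6, TLL1 in 1 and HS6ST1 in 3 among them. SULF2 was lost on the log2 FPKM scale. Over all 17 alternatives SULF2 passed in 14 and SDC3 in 16.

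**Figure D4:**
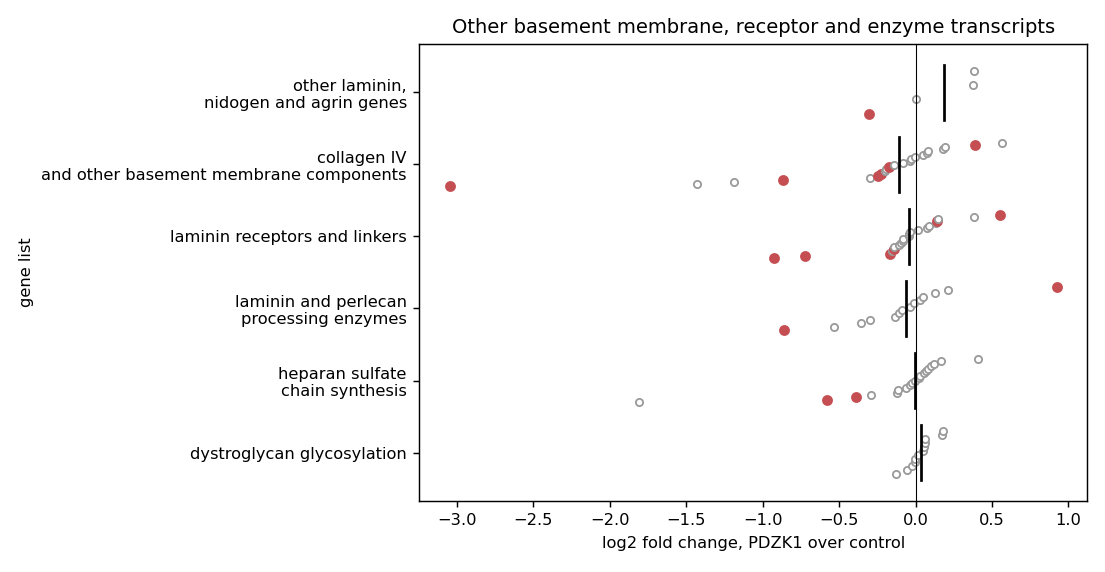
Log2 fold change, PDZK1 overexpression over control, of every tested gene of the 6 related lists, 1 point per gene, sorted upwards within a list; filled red points passed an adjusted p of 0.05 with edgeR and black bars are list medians. The medians lie between -0.11 and 0.19, and the highest red point is PLAU at 0.93.

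The genes whose log2 CPM followed the alpha chains most closely over the 6 libraries were sought among those with a mean of at least 5 CPM. The 6 points fall into the 2 groups, and both genes of a pair were read from the same libraries, so the coefficients are descriptions. Nearest to LAMA5 were SULF2 (Pearson r = 0.999), IDH2 (0.997) and GYG2 (0.997). Nearest to LAMA3 were PHYHD1 (0.998), PDPN (0.997) and ADSS2 (0.995), and nearest to LAMA4 were ITIH5 (0.997), NUP107 (0.995) and GABRA5 (0.995). The fold changes of these genes were unequal, from -2.59 for ITIH5, which went from 15.4, 14.7 and 9.93 to 2.53, 2.38 and 1.73 CPM, to -0.16 for NUP107 (adjusted p = 0.0948 with edgeR).

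Over the 10 tested genes on each side of LAMA5 the median log2 fold change was 0.011, and 2 of the 20, GATA5 and SLC17A9, were called lower, beside 2.41% of all tested genes. The medians around LAMA3 and LAMA4 were 0.018 and 0.0080 with none of 20 called, and that around HSPG2 was -0.023. Around AGRN, near the end of chromosome 1, the median of 17 neighbours was -0.23, with 14 of them negative, 3 called lower and 1 called higher.

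**Figure D5:**
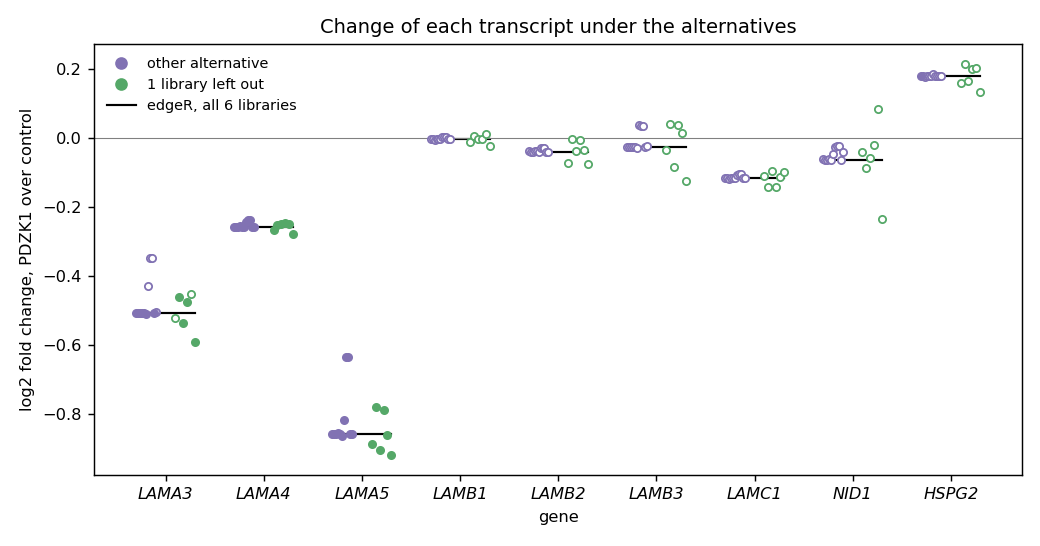
Log2 fold change of each member with edgeR on all 6 libraries (black bars), with 1 library left out (green) and under the other alternatives (violet), 17 in all; filled points passed an adjusted p of 0.05 and open points did not. LAMA4 and LAMA5 are filled under every setting, LAMA3 under 11 of 17 alternatives, and HSPG2 under 1.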

How the data were processed

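Per the labels, the reads were trimmed with fastp 0.20.1 and aligned with HISAT2 2.2.1 to GRCh38. The counting program, annotation and strandedness are not given in the sources used here. The authors deposited estimated counts, as whole numbers per gene and library, and FPKM. Of 21314 entries, 853 assembled loci (0.519% to 0.536% of counts) were left out, and 3 per-sample columns per table that match no sample were not used. Counts were tested with edgeR 4.0.16 in R 4.3.3 (filterByExpr, TMM scaling, robust quasi-likelihood, no covariates), 3 against 3 libraries, with Benjamini-Hochberg adjustment over 13645 genes and a threshold of 0.05; the biological coefficient of variation was 0.0995. CPM use TMM-scaled library sizes. Intervals are 95% model intervals, and floors (3 counts) cover counting error only. Coordinates are 1-based, from GENCODE release 29, which matched 20229 of 20461 Ensembl identifiers; promoters are from RefSeq.

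Alternatives were DESeq2 1.42.0, limma 3.58.1 (voom, and log2 FPKM with a pseudocount of 1 or 0.1 at a mean FPKM of at least 0.5, or unfiltered), other scalings and filters, PDZK1 left out, a non-robust fit, a replicate block and each library left out. Assembled loci kept was added after seeing the data. The members, lists and rules were chosen with earlier results of these data known. Named genes are PDZK1, the members, the other laminin, nidogen and agrin genes, up to 6 called genes per related list by size, and the 3 genes most alike to each called member; other names were chosen after their values were seen. Some listed genes are not reported here and were left out of the lists and shares, where LAMC1 alone stands for its chain class.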

Additional observations from a re-analysis of the deposited data

How the results depend on the processing

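The number of genes past the threshold, 522 with edgeR (193 higher, 329 lower), was 806 with DESeq2 (313 and 493), 184 on log2(FPKM + 1) (75 and 109), 185 on log2(FPKM + 0.1) (74 and 111), 185 without the FPKM filter (69 and 116) and 181 to 875 with 1 library left out (66 to 347 higher, 115 to 528 lower), the highest without control replicate 3. Members past the threshold numbered 3, and 4 with DESeq2, 2 in the FPKM fits and 2 to 3 with 1 library left out. Calls over the related lists, 17, were 6 in each FPKM fit and 5 to 24 with 1 library left out. The cause was not tested.

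LAMA3 was past the threshold in 11 of 17 alternatives. It was -0.43 on log2(FPKM + 0.1), -0.35 on log2(FPKM + 1) with or without the filter, and -0.59 to -0.45 with 1 library left out. HSPG2 passed with DESeq2 (0.18). Directions that turned, none past the threshold, were LAMB1 (0.0037 and 0.0036 on FPKM, -0.025 to 0.012 with 1 library left out), LAMB3 (0.036 and 0.033, -0.13 to 0.041), NID1 (-0.23 to 0.083), LAMA2 (-0.037 on FPKM, 0.053 to 0.80) and LAMB4 (-0.0011 on FPKM, -0.18 to 0.20). Shares of alpha counts in place of FPKM gave differences of 5.33 percentage points for LAMA4 and -4.11 for LAMA5, against 3.90 and -3.01.

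Same-numbered libraries did not deviate together (residual correlations -0.046, -0.056 and -0.14), so no pairing was seen. With 3 libraries per group these values cannot exclude it. With the replicate block, 163 genes passed (59 higher, 104 lower), of which 159 were among the 522, with 2 members and 6 genes of the related lists. LAMA3 was then -0.50 (adjusted p = 0.0601 with edgeR) and LAMB4 -0.0021.

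With 3 libraries per group and a biological coefficient of variation of 0.0995, the intervals of LAMB1, LAMB2, LAMB3, LAMC1, NID1 and HSPG2 exclude a 1.5-fold change but smaller ones were not resolved for LAMB3 and NID1. LAMA1 and LAMC3 were too low to test.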

Other observations

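Counts per FPKM give the mean transcript length that the estimation assigned to a gene in a library, scaled here on 491 genes with 1 annotated transcript, for which the 10th to 90th percentile of the ratio to the annotated length was 0.926 to 1.10. For LAMA3 this length was 10252 to 10659 bases in 5 libraries and 9095 bases in PDZK1 replicate 1, where the longest annotated coding transcript has 10661 bases. Shorter coding transcripts of LAMA3 are annotated too, with 9834, 8171 and 5671 bases among them. PDZK1 replicate 1 had the highest LAMA3 FPKM of its group (3.63) and 35.7 CPM, between the 32.9 and 36.4 CPM of the other PDZK1 libraries. For LAMA5 it was 11427 to 11430 bases in 4 libraries, 11170 in control replicate 3 and 11131 in PDZK1 replicate 2. For LAMA4 the length was 7051 to 7108 bases and for HSPG2 14226 to 14300 bases.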
